A study of Homo sapiens with 6 samples.

Results

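The genes described here encode the working parts of the lysosome and were chosen by name: 46 genes for the proton pump, the cathepsins, the sugar and lipid hydrolases, membrane proteins of the organelle and the transcription factors TFEB and TFE3. Of these, 45 were among the 11363 genes of the deposited table, and MCOLN1 was not analysed here. RNA was sequenced from NOMO-1, a monocytic cell line derived from human acute myeloid leukaemia. The groups were cells with a knockout of MSLN, the gene of the surface protein mesothelin (MSLN-KO, 3 libraries), and WT cells of the same line (3 libraries). The labels name no treatment or time point and do not say whether the knockout is 1 clone or whether replicates were separate cultures, so the p-values reflect the spread among these libraries alone, and that spread may be technical.

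Lysosomes break down proteins, glycans and lipids that arrive by endocytosis, phagocytosis and autophagy, and they are abundant in monocytes and macrophages. Their hydrolases work at acid pH. That pH is kept by the vacuolar ATPase, a rotary pump whose peripheral sector (V1) hydrolyses ATP and whose membrane sector (V0) carries protons into the lumen. TFEB and TFE3 bind E-box motifs near the starts of many lysosomal genes once they are released from inhibition by the kinase complex mTORC1.

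Values are CPM, read counts per gene relative to library size after the authors' TMM scaling, and each change is MSLN-KO minus WT on log2(CPM + 1), fitted with limma over all 11363 genes with a call at an adjusted p (Benjamini-Hochberg) under 0.05. MSLN itself stood at 45.7, 46.9 and 45.3 CPM in MSLN-KO, against 153.2, 122.9 and 105.9 CPM in WT (log2 change -1.43, SE 0.10, adjusted p = 1.5e-07). Transcript of the targeted gene was therefore lower in every MSLN-KO library, though not lost. The exons of ATP6V0A1, ATP6V0C, CTSD, TPP1, HEXA, MANBA, MAN2B1 and CLN3 overlap another annotated gene on the same strand, and ATP6V0C, ATP6V0E1, ATP6V1E1, ATP6V1G1, CTSL, GUSB and GM2A have annotated pseudogene copies, so part of their counts is uncertain. In addition 16 members, among them ATP6V1D, CTSA, HEXA, LIPA, PPT1, CLN3 and CTNS, overlap a gene on the opposite strand, whose reads are separated only if the counting used strand. Libraries held between 23665824 and 30804446 reads in the listed genes, as far as the steps between values show. The 45 members were expressed at 11.8 to 1110.0 CPM (means over the 6 libraries), and the filter on low values removed none of them.

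Lysosomal genes moved in both directions, mostly by small amounts. Of the 45 members, 30 were called (66.7%), against 45.7% of all genes tested and 47.7% of the 2878 genes whose mean lay in the members' interquartile range of 55.4 to 182 CPM. Members were chosen with earlier results of these data known, and they varied less between libraries of a group than all genes. The median SD as a percent of the mean was 3.38% against 5.6% in MSLN-KO, and 5.57% against 6.14% in WT. The part of either in the share called was not tested. In MSLN-KO 18 members were lower and 12 were higher, where 23.3% of all genes were lower and 22.4% were higher. The median log2 change was -0.09 over the members and 0.01 over all genes, and the median absolute change was 0.25 over the members and 0.18 over all genes. In 35 members the MSLN-KO libraries all lay on one side of the WT libraries, which held for 54.7% of all genes. CTSH, HEXA and CTSL were lower, and CTNS higher, by more than 0.5 on the log2 scale, and the other 41 members changed by less. The number called higher was 6 when WT replicate 3 was left out and 7 when MSLN-KO replicate 1 was, while the number called lower stayed between 16 and 19 whichever library was left out.

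**Figure D1:**
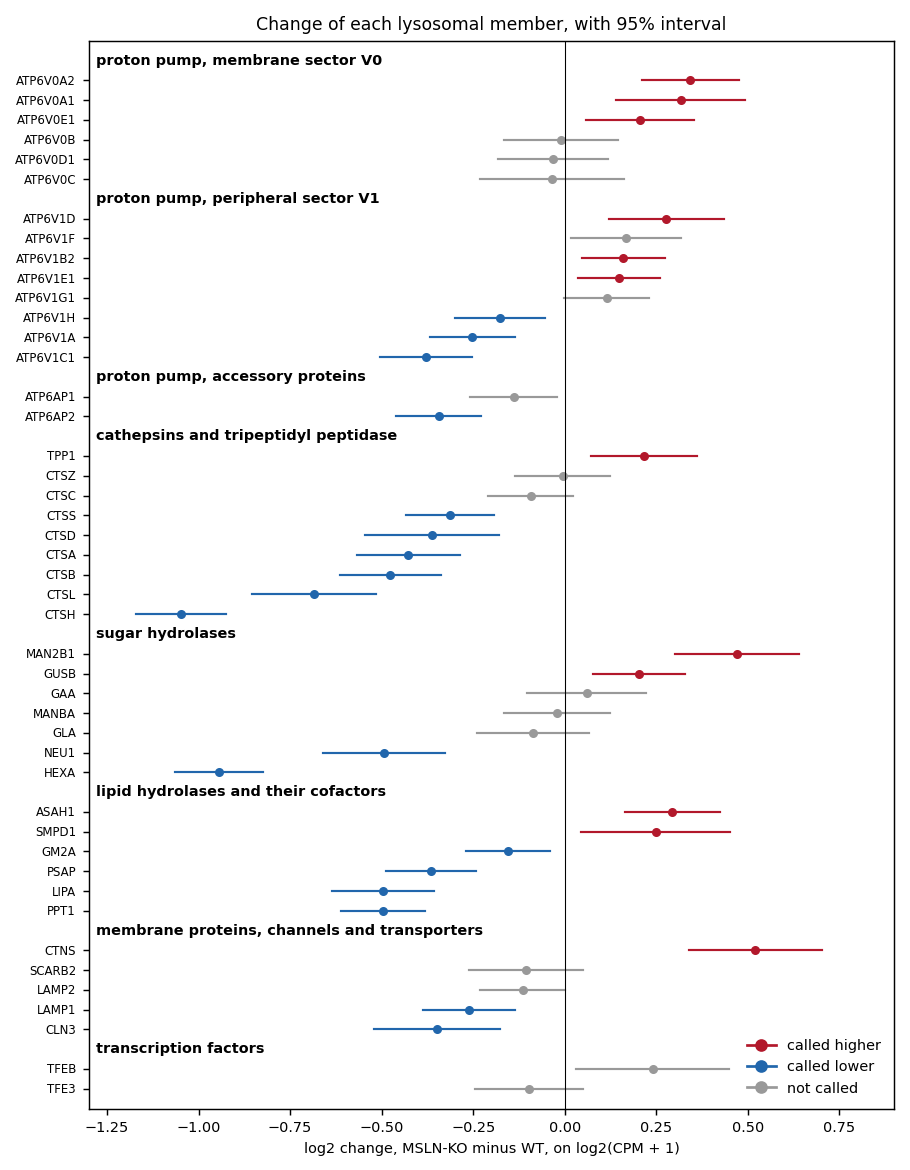
Log2 change of each of the 45 members (horizontal axis, MSLN-KO minus WT on log2(CPM + 1)), grouped by role down the page, with its 95% interval as a bar; red points were called higher, blue points were called lower and grey points were not called. CTSH and HEXA stand apart on the low side at -1.05 and -0.94, and CTNS lies highest at 0.52.

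The balance of calls varied between the roles. The 16 pump genes had 6 higher, 4 lower and 6 not called, with a median log2 change of 0.05. The 8 cathepsins had 0 higher, 6 lower and 2 not called, with a median of -0.40. The 6 lipid hydrolases and their cofactors had 2 higher and 4 lower (median -0.26), the 7 sugar hydrolases had 2 higher, 2 lower and 3 not called (median -0.02), and the 5 membrane proteins had 1 higher, 2 lower and 2 not called (median -0.12). Summed over the 16 pump genes, the level was 1360.0, 1389 and 1385 CPM in MSLN-KO, against 1415, 1427 and 1440.0 CPM in WT. Summed over the 8 cathepsins it was 1197, 1234 and 1157 CPM in MSLN-KO, against 1451, 1455 and 1612 CPM in WT. The groups of libraries did not overlap in either sum, and the ratio of the means was 0.966 for the pump and 0.794 for the cathepsins. With columns rescaled to their totals the pump sums overlapped, at 1387, 1407 and 1432 CPM in MSLN-KO against 1401, 1431 and 1444 CPM in WT (ratio 0.988), and the cathepsin sums did not (ratio 0.813). Differences between the roles were not tested.

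**Figure D2:**
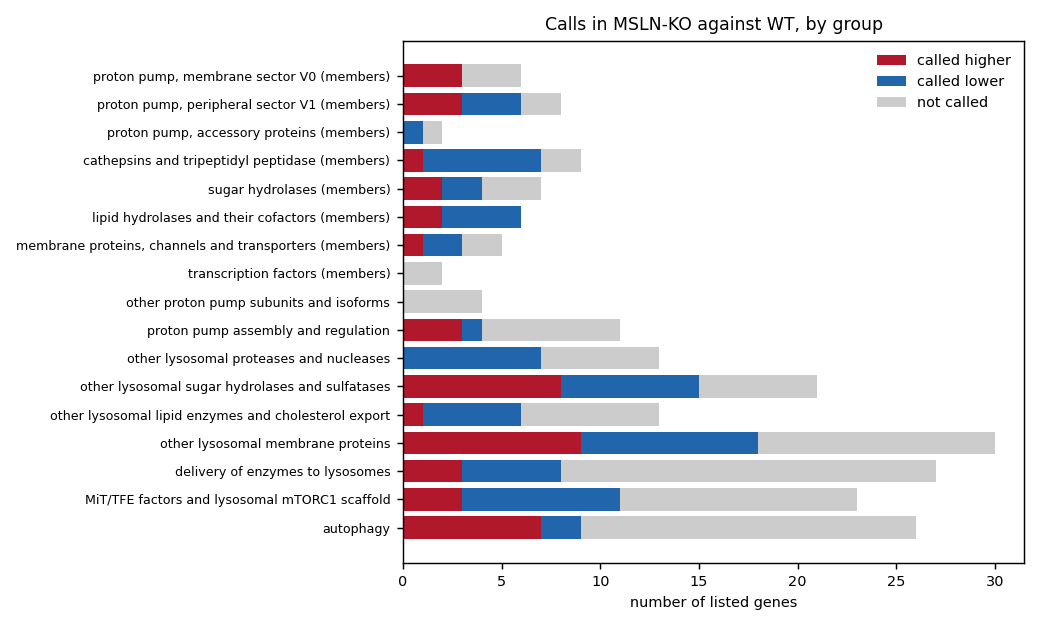
Number of listed genes (horizontal axis) called higher, called lower or not called in MSLN-KO against WT. Down the page are the roles of the members, marked as members, and then the wider lists of other genes described below, without cell type markers and mitochondrial transcripts. The bar of cathepsins with tripeptidyl peptidase holds 6 lower members and 1 higher, while the V1 sector of the pump holds 3 of each.

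In the membrane sector of the pump, 3 of 6 genes were higher in MSLN-KO and none was lower. ATP6V0A2, an isoform of the large a subunit that lines the proton path, stood at 70.0, 71.9 and 77.9 CPM in MSLN-KO, against 59.5, 57.2 and 55.9 CPM in WT (log2 change 0.34, SE 0.06, adjusted p = 0.00054). ATP6V0A1, another a isoform, stood at 50.2, 54.5 and 47.4 CPM in MSLN-KO, against 36.1, 41.1 and 44.5 CPM in WT (log2 change 0.32, SE 0.08, adjusted p = 0.0066). For both isoforms every MSLN-KO library was above every WT library, a 1.27-fold rise for ATP6V0A2 and a 1.249-fold rise for ATP6V0A1. The small e subunit ATP6V0E1 stood at 62.4, 60.5 and 63.1 CPM in MSLN-KO, against 57.8, 48.9 and 54.6 CPM in WT (log2 change 0.21, SE 0.07, adjusted p = 0.025); the call was lost without any 1 of 4 libraries (WT replicate 2 or 3, MSLN-KO replicate 1 or 3), at adjusted p between 0.0536 and 0.0802. The rotor ring genes ATP6V0B (log2 change -0.01, adjusted p = 0.92) and ATP6V0C (log2 change -0.03, adjusted p = 0.78) and the ring's link to the stalk, ATP6V0D1 (log2 change -0.03, adjusted p = 0.73), were not called, and their libraries overlapped.

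The peripheral sector divided evenly. ATP6V1C1, which links the head of the pump to its stalks, stood at 77.9, 72.8 and 76.4 CPM in MSLN-KO, against 94.4, 98.2 and 104 CPM in WT (log2 change -0.38, SE 0.06, adjusted p = 0.00016). ATP6V1A, the catalytic subunit, stood at 195, 202 and 208 CPM in MSLN-KO, against 239.6, 250.3 and 231 CPM in WT (log2 change -0.25, SE 0.05, adjusted p = 0.0019). Both fell, with no overlap between the groups. ATP6V1H, which regulates ATP hydrolysis, stood at 73.3, 75.3 and 78.8 CPM in MSLN-KO, against 82.5, 86.9 and 88.2 CPM in WT (log2 change -0.18, SE 0.06, adjusted p = 0.021), and was not called with WT replicate 3 left out (adjusted p = 0.0837), with MSLN-KO replicate 1 left out (0.105) or with MSLN-KO replicate 2 left out (0.0642), or when columns were rescaled to their totals (0.0651). In the other direction, ATP6V1D of the central rotor stood at 41.2, 42.6 and 43.5 CPM in MSLN-KO, against 32.0, 38.3 and 34.4 CPM in WT (log2 change 0.28, SE 0.07, adjusted p = 0.0076). All 3 MSLN-KO libraries were above the highest WT library for ATP6V1D.

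Smaller rises were called for ATP6V1B2, the partner of ATP6V1A in the head (log2 change 0.16, adjusted p = 0.024), and for ATP6V1E1 of the outer stalk (log2 change 0.15, adjusted p = 0.033). Neither call held throughout: that of ATP6V1B2 was lost when WT replicate 1 was left out (adjusted p = 0.083), and likewise WT replicate 3 (0.0757), MSLN-KO replicate 1 (0.0609) or MSLN-KO replicate 2 (0.0695), and that of ATP6V1E1 without WT replicate 1 (0.0562), WT replicate 3 (0.0907), MSLN-KO replicate 1 (0.0662) or MSLN-KO replicate 2 (0.13). ATP6V1F of the rotor (log2 change 0.17, adjusted p = 0.066) and ATP6V1G1 of the outer stalk (log2 change 0.11, adjusted p = 0.099) were not called, although all MSLN-KO libraries lay above the WT libraries for both. Of the accessory proteins, ATP6AP2, also known as the prorenin receptor, stood at 159.9, 166 and 169 CPM in MSLN-KO, against 201, 209 and 219 CPM in WT (log2 change -0.34, SE 0.05, adjusted p = 0.0002), lower in each MSLN-KO library than in any WT library. ATP6AP1 was not called (log2 change -0.14, adjusted p = 0.052).

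Because subunits of V1 moved in opposite directions, their proportions within a library differed between the groups whatever the scaling. The ratio of ATP6V1B2 to ATP6V1A in CPM was 0.791, 0.778 and 0.764 in MSLN-KO, against 0.566, 0.584 and 0.599 in WT. The ratio of ATP6V1D to ATP6V1C1 was 0.529, 0.585 and 0.569 in MSLN-KO, against 0.339, 0.39 and 0.332 in WT. Both ratios were higher in every MSLN-KO library. The pairs were chosen after their values were seen, so the ratios are descriptions without a test.

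Cathepsins, the proteases of the lysosome, were lower or not called. CTSH, a cysteine protease that trims the amino ends of proteins, showed the largest change of all members: it stood at 37.5, 39.6 and 38.6 CPM in MSLN-KO, against 81.0, 81.4 and 80.0 CPM in WT (log2 change -1.05, SE 0.06, adjusted p = 1.1e-08), 2.095-fold lower in MSLN-KO. CTSL, an endopeptidase, stood at 13.8, 15.5 and 16.2 CPM in MSLN-KO, against 24.8, 24.8 and 25.2 CPM in WT (log2 change -0.68, SE 0.08, adjusted p = 1.4e-05). CTSB, an endopeptidase that also removes dipeptides from carboxyl ends, stood at 213, 217 and 208 CPM in MSLN-KO, against 276, 288 and 327 CPM in WT (log2 change -0.48, SE 0.06, adjusted p = 5.6e-05). The MSLN-KO libraries lay well below the WT libraries for all of these. CTSA, a serine carboxypeptidase that also protects the sialidase NEU1, stood at 91.5, 93.5 and 85.9 CPM in MSLN-KO, against 118, 115 and 133 CPM in WT (log2 change -0.43, SE 0.07, adjusted p = 0.00017).

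The aspartic protease CTSD averaged 348 ± 31.8 CPM in MSLN-KO and 449 ± 53.5 CPM in WT (SD, n = 3 each), with limma giving log2 change -0.36, SE 0.08, adjusted p = 0.0036. CTSS, which trims the invariant chain of MHC class II, averaged 110.1 ± 4.37 CPM in MSLN-KO and 137 ± 5.22 CPM in WT (SD, n = 3 each), with limma giving log2 change -0.31, SE 0.06, adjusted p = 0.00052. Both were lower in every MSLN-KO library. CTSC, which activates the serine proteases of myeloid granules, was not called though its libraries did not overlap (log2 change -0.09, adjusted p = 0.17), and the carboxypeptidase CTSZ was not called (log2 change -0.01, adjusted p = 0.95). TPP1, a tripeptidyl peptidase that is lost in a childhood neuronal ceroid lipofuscinosis, was the only protease of the 9 called higher (log2 change 0.22, adjusted p = 0.018), and that call was lost when WT replicate 1 was left out (adjusted p = 0.072), and likewise WT replicate 3 (0.0874) or MSLN-KO replicate 2 (0.0805). The ratio of TPP1 to CTSB was 0.893, 0.957 and 0.915 in MSLN-KO, against 0.583, 0.646 and 0.488 in WT. This pair too was chosen after its values were seen, so its ratio is a description without a test.

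**Figure D3:**
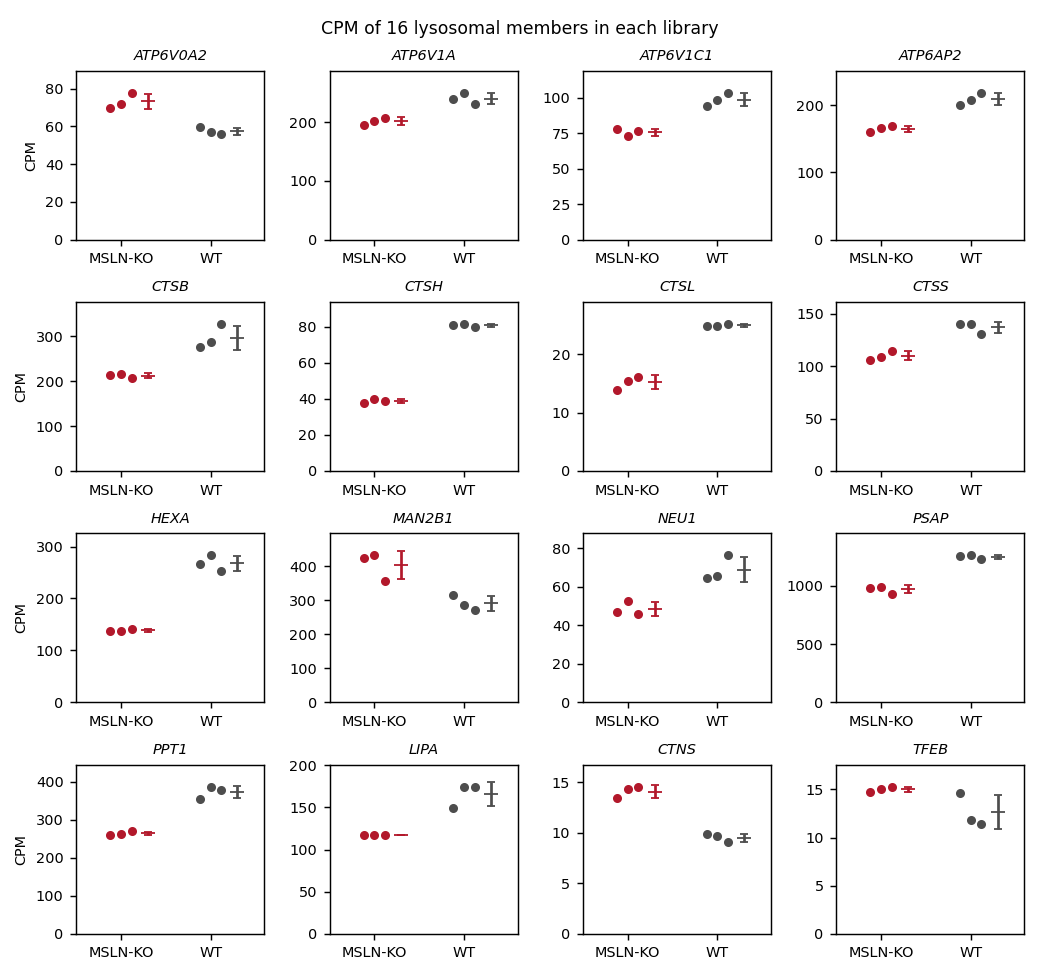
CPM in each library for 16 members, 1 panel each with its own vertical axis, MSLN-KO left of WT; dots are libraries and the bar beside them is the mean with its SD (n = 3). The dots of the 2 groups are separate in all 16 panels, widest for CTSH and HEXA, and closest for TFEB, where the lowest MSLN-KO value is 14.8 CPM and the highest WT value is 14.7 CPM.

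Among the sugar hydrolases the members went opposite ways. HEXA, the alpha subunit of beta-hexosaminidase whose loss causes Tay-Sachs disease, stood at 137, 137 and 141 CPM in MSLN-KO, against 266, 283 and 253 CPM in WT (log2 change -0.94, SE 0.06, adjusted p = 2.5e-08), 1.93-fold lower in MSLN-KO. NEU1, the sialidase, stood at 47.1, 52.6 and 45.9 CPM in MSLN-KO, against 64.3, 65.8 and 76.3 CPM in WT (log2 change -0.49, SE 0.08, adjusted p = 0.00018). MAN2B1, the alpha-mannosidase that is lost in alpha-mannosidosis, stood at 424, 432 and 356 CPM in MSLN-KO, against 315, 287 and 271 CPM in WT (log2 change 0.47, SE 0.08, adjusted p = 0.00031). HEXA and NEU1 were thus lower, and MAN2B1 1.39-fold higher, with separate groups for each. GUSB, the beta-glucuronidase, stood at 171, 167 and 168 CPM in MSLN-KO, against 158, 145 and 138 CPM in WT (log2 change 0.20, SE 0.06, adjusted p = 0.012), but was not called when WT replicate 3 was left out (adjusted p = 0.0672), nor when MSLN-KO replicate 1 was (0.0548).

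GLA, the alpha-galactosidase that is lost in Fabry disease (log2 change -0.09, adjusted p = 0.34), GAA, the acid glucosidase that is lost in Pompe disease (log2 change 0.06, adjusted p = 0.55), and the beta-mannosidase MANBA (log2 change -0.02, adjusted p = 0.82) were not called. CTSA, NEU1 and the beta-galactosidase GLB1 form a complex in the lysosome. GLB1, which is not a member and was added after its value was seen, was also lower (log2 change -0.34, adjusted p = 0.00058).

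CTSH and HEXA are the only members on chromosome 15, where most genes were lower. CTSH (ENSG00000103811.18) lies at chr15:78921058-78949574 and HEXA (ENSG00000213614.11) at chr15:72340919-72376476, both on the minus strand of GRCh38. Of 371 listed genes of chromosome 15, 308 were called lower (83.0%) and 13 higher, and their median log2 change was -0.57, with quartiles of -0.76 and -0.34, against 0.02 for all other genes. Within this chromosome, 36 genes had a lower log2 change than CTSH and 47 a lower one than HEXA. Of the 11 listed genes that start within 1 Mb of CTSH, 11 were called lower (median -0.61), and of 7 such neighbours of HEXA, 5 were (median -0.46). Whether the fall of the chromosome as a whole accounts for the change of either gene was not tested. Without chromosome 15, 28 of 43 members were called, 12 higher and 16 lower. Of the 7 cathepsins other than CTSH, 5 were lower and 0 higher, with a median log2 change of -0.36.

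**Figure D4:**
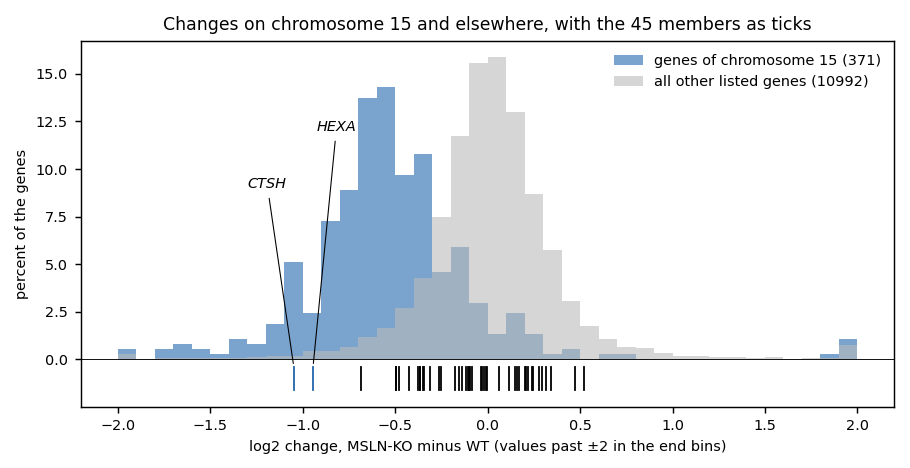
Distribution of the log2 change (horizontal axis, MSLN-KO minus WT) as a percent of the genes (vertical axis) for the 371 listed genes of chromosome 15 and the 10992 others; ticks under the axis are the 45 members, blue for those on chromosome 15. The chromosome 15 genes centre on -0.57 and the others on 0.02, and the ticks of CTSH and HEXA are the lowest of the members.

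Enzymes and cofactors of lipid breakdown were mostly lower, and all 6 were called. PPT1, which removes palmitate from proteins, stood at 259.9, 263 and 269 CPM in MSLN-KO, against 355, 386 and 379 CPM in WT (log2 change -0.50, SE 0.05, adjusted p = 7.5e-06). LIPA, the acid lipase that frees cholesterol from its esters, stood at 117, 117 and 117 CPM in MSLN-KO, against 148.9, 174 and 175 CPM in WT (log2 change -0.50, SE 0.06, adjusted p = 4.3e-05). PSAP, the precursor of the saposins that present sphingolipids to their hydrolases, stood at 985, 994 and 933 CPM in MSLN-KO, against 1257, 1261 and 1231 CPM in WT (log2 change -0.36, SE 0.06, adjusted p = 0.00018). All 3 genes were lower in each MSLN-KO library than in any WT library, and LIPA was nearly the same in the 3 MSLN-KO libraries. ASAH1, the acid ceramidase, rose: it stood at 120.3, 119.5 and 133 CPM in MSLN-KO, against 96.7, 105 and 102 CPM in WT (log2 change 0.29, SE 0.06, adjusted p = 0.0014).

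The ratio of ASAH1 to PPT1, a pair also chosen after its values were seen, was 0.463, 0.454 and 0.494 in MSLN-KO, against 0.273, 0.271 and 0.269 in WT. GM2A, the activator protein for the breakdown of ganglioside by hexosaminidase, was slightly lower (log2 change -0.16, adjusted p = 0.03), and the acid sphingomyelinase SMPD1 slightly higher (log2 change 0.25, adjusted p = 0.046). SMPD1 was the only called member whose libraries overlapped. Neither call held throughout, since GM2A was lost without WT replicate 1 (adjusted p = 0.073), WT replicate 2 (0.0677), MSLN-KO replicate 1 (0.0968) or MSLN-KO replicate 3 (0.0651), and SMPD1 without WT replicate 2 (0.132), WT replicate 3 (0.117), MSLN-KO replicate 1 (0.191) or MSLN-KO replicate 2 (0.117). Summed over the 6 genes, the level was 1630.0, 1644 and 1594 CPM in MSLN-KO, against 2019, 2089 and 2038 CPM in WT, and PSAP made up most of it.

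Of the membrane proteins, CTNS, which exports cystine, rose most. It stood at 13.4, 14.3 and 14.6 CPM in MSLN-KO, against 9.83, 9.67 and 9.06 CPM in WT (log2 change 0.52, SE 0.08, adjusted p = 0.00026), a 1.48-fold rise with separate groups. CLN3, whose loss causes juvenile neuronal ceroid lipofuscinosis, stood at 37.2, 37.2 and 33.3 CPM in MSLN-KO, against 50.7, 41.5 and 46.04 CPM in WT (log2 change -0.35, SE 0.08, adjusted p = 0.0032). LAMP1, a glycoprotein that coats the inner face of the membrane, stood at 124, 128 and 119 CPM in MSLN-KO, against 147.1, 141 and 158 CPM in WT (log2 change -0.26, SE 0.06, adjusted p = 0.0026). CLN3 and LAMP1 were lower in every MSLN-KO library. The related LAMP2 was not called, although its MSLN-KO libraries were all below the WT libraries (log2 change -0.12, adjusted p = 0.098), and SCARB2, which carries glucocerebrosidase to the lysosome, was not called (log2 change -0.11, adjusted p = 0.24).

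Neither transcription factor was called. TFEB stood at 14.8, 15.03 and 15.3 CPM in MSLN-KO, against 14.7, 11.8 and 11.5 CPM in WT (log2 change 0.24, SE 0.10, adjusted p = 0.058). TFE3 stood at 31.7, 30.1 and 28.5 CPM in MSLN-KO, against 32.7, 32.9 and 31.2 CPM in WT (log2 change -0.10, SE 0.07, adjusted p = 0.26). The TFEB libraries lay close without overlapping, and those of TFE3 overlapped; TFEB was called without WT replicate 1 (adjusted p = 0.00919) and when columns were rescaled to their totals (0.0311).

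These factors bind the E-box CACGTG, in lysosomal genes often as TCACGTG. The RefSeq promoter table (GRCh38.p14, 250 bases before to 50 after each gene's start) held 33 of the 45 members. TCACGTG, read on both strands, was in 9 of the 33 (27.3%), against 3.82% of all 27305 promoters and 6.15% of the 8987 promoters of listed genes. It lies inside the longer TCACGTGA, which was in 6 of the 33 (18.2%), against 1.04% of all promoters and 2.04% of those of listed genes. The 9 were ATP6V0B, ATP6V0D1, ATP6V1G1, CTSA, CTSD, GAA, NEU1, LAMP1 and CLN3. In MSLN-KO 5 of these were lower, 0 higher and 4 not called, with a median log2 change of -0.26. Of the 24 promoters without it, 9 belonged to genes called higher, 6 lower and 9 not called, with a median of -0.02. Members with no promoter in the table, more of them called lower than higher, are outside these counts. Over all 45 members 12 were higher and 18 lower. The difference between the sets with and without the motif was not tested. Of the 6 members with TCACGTGA, 3 were lower and 3 not called (median -0.15), and the 2 of them in which it stands between G and C, ATP6V1G1 and GAA, were not called (median 0.09). A match is a description of the letters and not a site of binding.

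The promoters of LAMP1, CTSA and CLN3 are shown because they hold at least 2 copies in genes that were lower, and that of GAA as 1 of the 2 genes, with ATP6V0B, that hold 2 copies and were not called. Capitals mark TCACGTG or its reverse complement, and letters run 5′ to 3′ on the strand of the gene. They lie at chr13:113296989-113297288 on the plus strand (LAMP1), chr20:45891085-45891384 on the plus strand (CTSA), chr16:28492025-28492324 on the minus strand (CLN3) and chr17:80101331-80101630 on the plus strand (GAA).
LAMP1: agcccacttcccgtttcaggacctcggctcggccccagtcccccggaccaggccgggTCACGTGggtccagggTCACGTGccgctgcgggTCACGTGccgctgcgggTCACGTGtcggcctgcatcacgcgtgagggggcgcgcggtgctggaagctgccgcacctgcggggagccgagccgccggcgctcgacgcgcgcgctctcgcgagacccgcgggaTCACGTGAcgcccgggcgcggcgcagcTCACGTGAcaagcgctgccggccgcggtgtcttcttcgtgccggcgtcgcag
CTSA: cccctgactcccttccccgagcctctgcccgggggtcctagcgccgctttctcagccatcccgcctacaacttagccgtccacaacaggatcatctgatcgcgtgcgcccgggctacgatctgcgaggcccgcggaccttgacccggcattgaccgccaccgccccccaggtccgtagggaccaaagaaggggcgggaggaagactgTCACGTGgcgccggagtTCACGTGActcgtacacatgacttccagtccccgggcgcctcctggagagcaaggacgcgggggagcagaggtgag
CLN3: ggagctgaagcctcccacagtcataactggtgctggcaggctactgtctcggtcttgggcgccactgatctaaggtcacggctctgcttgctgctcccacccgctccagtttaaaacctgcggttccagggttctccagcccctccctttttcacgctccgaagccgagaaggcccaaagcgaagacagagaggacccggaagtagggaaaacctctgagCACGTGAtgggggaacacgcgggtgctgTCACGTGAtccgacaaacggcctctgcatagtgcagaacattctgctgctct
GAA: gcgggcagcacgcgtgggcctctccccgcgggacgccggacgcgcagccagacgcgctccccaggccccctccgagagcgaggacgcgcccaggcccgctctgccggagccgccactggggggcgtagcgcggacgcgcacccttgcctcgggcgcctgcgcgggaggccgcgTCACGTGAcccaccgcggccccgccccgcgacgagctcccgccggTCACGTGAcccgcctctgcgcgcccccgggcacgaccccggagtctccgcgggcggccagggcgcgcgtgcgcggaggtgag
LAMP1 holds 6 copies, which begin 193, 177, 160, 143, 29 and 2 bases before the start. The copies begin 43 and 26 bases before it in CTSA, 30 and 2 in CLN3, and 77 and 32 in GAA.

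Levels of different genes were set side by side per kb of exon. PSAP was highest, with 300 ± 10.1 CPM per kb in MSLN-KO and 386 ± 5.08 CPM per kb in WT (SD, n = 3 each), followed by CTSD and CTSZ in both groups. TFEB was lowest, with 2.66 ± 0.0449 CPM per kb in MSLN-KO and 2.24 ± 0.31 CPM per kb in WT. MAN2B1 ranked 4 in MSLN-KO and 7 in WT, and HEXA ranked 30 in MSLN-KO and 22 in WT. Within the pump, levels per kb ranged down from ATP6V1G1, with 66.3 in MSLN-KO and 61.2 in WT, to ATP6V0A1, with 4.63 in MSLN-KO and 3.71 in WT.

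**Figure D5:**
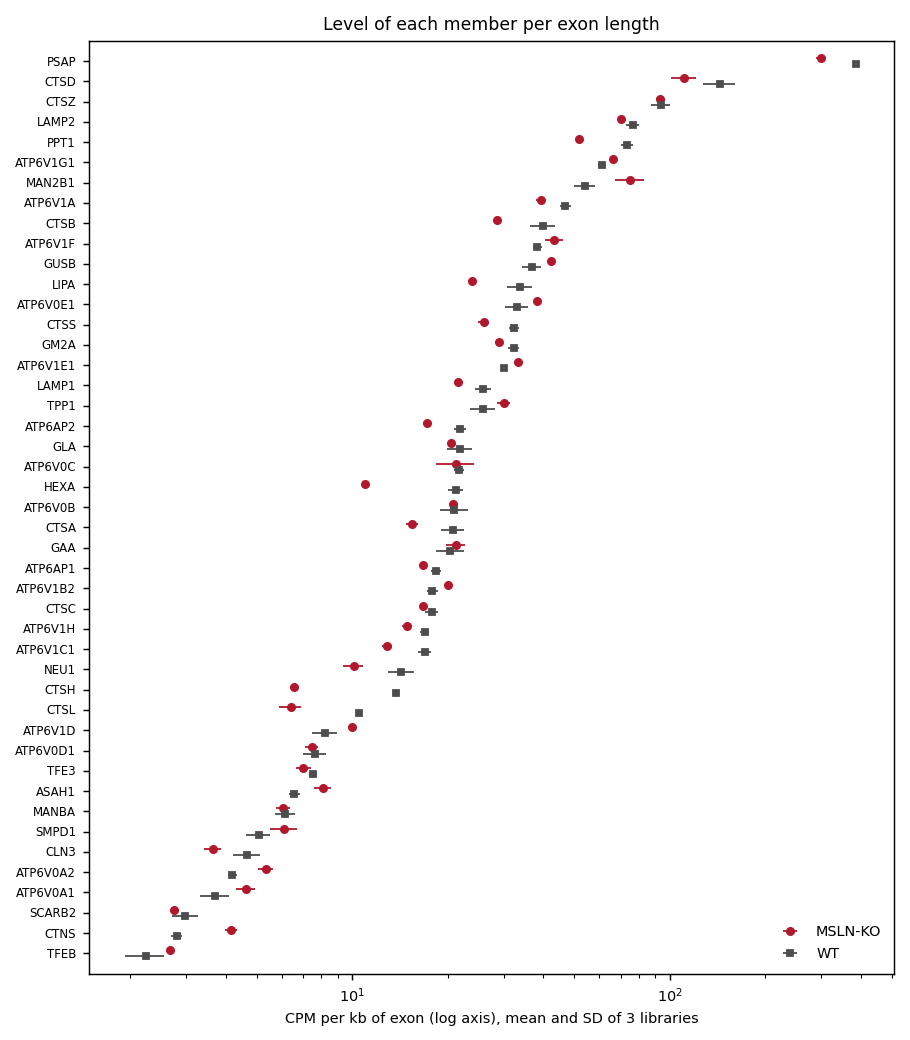
Mean CPM per kb of exon (horizontal axis, log scale) with SD for each of the 45 members, MSLN-KO as red circles above WT as grey squares (n = 3 each). Members span from 2.66 to 300 CPM per kb in MSLN-KO and from 2.24 to 386 in WT, and the groups lie close to each other beside that span.

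Other genes of the lysosome were read from wider lists, to be set against the 45.7% of all genes that were called. Of 13 further proteases and nucleases, 7 were lower, 0 higher and 6 not called, with a median log2 change of -0.21. LGMN, the asparaginyl endopeptidase that matures cathepsins, averaged 2.76 ± 0.29 CPM in MSLN-KO and 12.3 ± 3.20 CPM in WT (SD, n = 3 each; log2 change -1.79, adjusted p = 1.1e-06). All its MSLN-KO libraries lay under 4.90 CPM, the level that every listed gene reached in at least 3 libraries, so LGMN was listed through its WT level alone and had to differ. Of the other 12, 6 were lower and 6 not called, the carboxypeptidase CPVL among the lower ones (log2 change -0.48, adjusted p = 8.2e-05). Of 21 further sugar hydrolases and sulfatases, which include the pseudogene GUSBP1, 8 were higher, 7 lower and 6 not called (median 0.01). SGSH, a sulfatase of heparan sulfate (log2 change 0.53, adjusted p = 0.00031), and CTBS, which cleaves chitobiose (log2 change 0.51, adjusted p = 0.00051), rose most, while HGSNAT (log2 change -0.68, adjusted p = 1.2e-06) and NAGLU (log2 change -0.40, adjusted p = 0.0035), which also act on heparan sulfate, fell.

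Of 13 further genes of lipid breakdown and cholesterol export, 5 were lower, 1 higher and 7 not called, with SMPDL3A (log2 change -0.96, adjusted p = 2.8e-06) and the thioesterase PPT2 (log2 change -0.46, adjusted p = 0.00092) lowest. The 1 higher, the phospholipase PLA2G15 (log2 change 0.20, adjusted p = 0.046), lost its call without any 1 of 5 libraries (WT replicate 1, 2 or 3, MSLN-KO replicate 1 or 2), at adjusted p between 0.0668 and 0.179. Among 30 further membrane proteins 9 were higher, 9 lower and 12 not called: LAMP5 (log2 change 1.11, adjusted p = 2.1e-07) and the cation channel TPCN1 (log2 change 0.55, adjusted p = 1.9e-05) rose most, and LAPTM4B (log2 change -0.84, adjusted p = 6.8e-07) and the channel MCOLN2 (log2 change -0.50, adjusted p = 0.0013) fell most. None of the 4 other pump subunits listed was called. Of 11 genes for assembly and control of the pump, 3 were higher, 1 lower and 7 not called, NCOA7 (log2 change 0.45, adjusted p = 0.00086) and TMEM9B (log2 change 0.22, adjusted p = 0.019) among the higher ones, and the 1 lower was DMXL2 of chromosome 15 (log2 change -0.79, adjusted p = 9.1e-06). Without MSLN-KO replicate 1 only 1 of these was higher, and TMEM9B was then at adjusted p = 0.0537, as it was at 0.0583 without MSLN-KO replicate 3.

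Of 27 genes that deliver enzymes to lysosomes, 3 were higher, 5 lower and 19 not called. GRN, the precursor of the granulins (log2 change 0.33, adjusted p = 0.0042), and VPS16, a tethering subunit (log2 change 0.29, adjusted p = 0.011), rose, and GNPTAB, which begins the mannose 6-phosphate tag (log2 change -0.56, adjusted p = 1.5e-05), fell. VPS18, another tethering subunit (log2 change -0.61, adjusted p = 5.5e-05), also fell, but 3 of the 5 lower genes, VPS18 among them, are on chromosome 15.

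Markers of monocytes and macrophages were mostly lower in MSLN-KO. Of 22 markers 16 were listed, and 14 of them were lower, 1 higher and 1 not called. Their summed level was 8187 to 8717 CPM in MSLN-KO and 17860.0 to 19000.0 CPM in WT. The lysozyme gene LYZ made up most of it, with a mean of 6081 CPM in MSLN-KO and 14540.0 CPM in WT; without LYZ the mean sum was 2289 CPM in MSLN-KO and 3725 CPM in WT (ratio 0.614). GPNMB averaged 1.09 ± 0.39 CPM in MSLN-KO and 13.8 ± 3.21 CPM in WT, CD163 averaged 1.93 ± 0.21 CPM in MSLN-KO and 17.3 ± 5.77 CPM in WT and CD14 averaged 4.21 ± 0.85 CPM in MSLN-KO and 11.4 ± 1.97 CPM in WT (SD, n = 3 each), while FCGR1A was higher in MSLN-KO (log2 change 0.78, adjusted p = 4.4e-07). GPNMB, CD163, C1QC and APOE were listed through their WT level alone, and of the other 12 markers 10 were lower, 1 higher and 1 not called. CD14, among these 12, stood at 3.61, 3.84 and 5.18 CPM in MSLN-KO, so without its WT level it would not have been listed either. C1QA, C1QB, FCGR3A, MARCO, MRC1 and MSR1 were not analysed here. The part of these markers in the changes of cathepsins and other members was not tested, and in bulk RNA fewer cells of a type and less RNA per cell cannot be told apart. Of the markers of other cells, 3 of 11 for T and NK cells were listed (3 lower), 1 of 6 for B cells (lower), 1 of 10 for erythroid and megakaryocytic cells (higher), 1 of 9 for epithelial and mesothelial cells (not called) and 1 of 9 for stromal and endothelial cells (lower). All libraries came from the cell line NOMO-1, so these genes were not read as the presence of such cells. CD79B, the B cell marker, lay under 4.90 CPM in every MSLN-KO library and was listed through its WT level alone. ITGA2B, the erythroid and megakaryocytic marker, lay under 4.90 CPM in every WT library and was listed through its MSLN-KO level alone. Both therefore had to differ. The share of CPM from the mitochondrial genome, a sign of RNA quality, was 0.934% to 0.971% in MSLN-KO and 0.905% to 0.988% in WT. Of its 14 listed transcripts 6 were higher, 3 lower and 5 not called, with MT-RNR1 (log2 change 0.48, adjusted p = 0.00073) and MT-ND3 (log2 change 0.41, adjusted p = 2.5e-05) highest and MT-CO2 (log2 change -0.23, adjusted p = 0.0061) lowest; their part in the results was not tested.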

How the data were processed

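RNA of 3 MSLN-KO and 3 WT samples of NOMO-1 was depleted of ribosomal RNA and sequenced from stranded libraries, per the labels' protocols. The submitters' processing notes name STAR, featureCounts and edgeR with GRCh38/hg38, with no versions; how the counting treated strand is not given in the sources used here. Deposited values are CPM, normalized by the authors with TMM. Depths came from the steps between values: every value, 100%, was a whole number of steps within a tolerance of 0.01. The table holds no gene with fewer than 3 libraries at 4.90 CPM or above.

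Symbols were matched for 11354 of 11363 genes, and coordinates, exon lengths and pseudogenes came from GENCODE release 29. The fit used lmFit and eBayes of limma 3.58.1 (R 4.3.3), the variance trended on intensity, on log2(CPM + 1), a scale that understates the change of low genes, with no covariates, two-sided, Benjamini-Hochberg over all genes. No gene fell under the minimum mean of 0.5 CPM (smallest mean 2.85 CPM). The fit was tested on simulated data. Folds are ratios of mean CPM.

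Members and lists were chosen with earlier results of these data known. Every member is named; values by library are given for up to 4 called members of each role with the largest change and for both transcription factors. Of each wider list up to 2 called genes in each direction are named, largest first, and GLB1, LYZ, CD14, MITF and TFEC were added after their values were seen. Some genes are not reported here. Alternatives changed the scaling, pseudocount, filter, variance trend and replicate block, left out chromosome 15, and left out each library.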

Additional observations from a re-analysis of the deposited data

How the results depend on the processing

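Of the 30 called members, 22 (6 higher, 16 lower) stayed called in all 15 alternatives or, for those on chromosome 15, in the 14 that tested them. The other 8 lost the call in at least 1, and none of the 30 changed direction. Left-out libraries mattered most: the number of members called higher ranged from 6 (WT replicate 3 left out) and 7 (MSLN-KO replicate 1 left out) to 12, the number lower from 16 to 19, all genes called from 4092 to 5114, against 5197 with all libraries, and the log2 change of MSLN from -1.56 to -1.29. With 1 library left out a group keeps 2, and the cause of the lost calls was not tested. Columns rescaled to their totals gave 15 members higher and 16 lower and raised the share of higher calls among all called genes to 56.4%, against 49%, with a shift of 0.03 in the median log2 change. Without the intensity trend 10 members were higher and 17 lower, and ATP6V1B2 (adjusted p = 0.0557), ATP6V1E1 (0.0646) and GM2A (0.0657) were not called; GM2A was not called with column totals either (0.0823). Same-numbered replicates did not consistently deviate together (correlation of deviations 0.192, -0.169 and -0.092). The largest correlation, 0.301, was between MSLN-KO replicate 3 and WT replicate 2, and structure shared across the groups was not tested. With the replicate block 4946 genes were called, with 11 members higher and 18 lower, and the call of ATP6V1E1 was lost (0.06). Apart from TFEB, members not called became called in these fits: ATP6V1F (0.03) and ATP6V1G1 (0.0455) with column totals, ATP6V1F without MSLN-KO replicate 3 (0.0221), and ATP6AP1 (0.0445) and SCARB2 (0.047) without WT replicate 1. Members that were not called changed sign as follows. With column totals the log2 change was 0.0222 for ATP6V0B, 0.028 for CTSZ and 0.0111 for MANBA. Over the 6 fits that left out 1 library it ranged from -0.0969 to 0.0369 for ATP6V0B, from -0.0976 to 0.0804 for ATP6V0C, from -0.0973 to 0.0158 for ATP6V0D1, from -0.0574 to 0.0422 for CTSZ and from -0.0771 to 0.0284 for MANBA. The 2 planned tests on read counts were not run: the deposited values are CPM, and too few of them are low to pass the check set for recovering reads. Depth was ample for the members, the lowest of which averaged 11.8 CPM in libraries of at least 23665824 reads.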

Other observations

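Autophagy, which brings cytoplasm to the lysosome, had 7 of 26 listed genes higher in MSLN-KO, 2 lower and 17 not called, with a median log2 change of 0.07. The share called was 34.6%, below the 45.7% of all genes, so the genes named here are single changes. ULK1, the kinase that starts it, averaged 16.6 ± 0.42 CPM in MSLN-KO and 9.64 ± 0.53 CPM in WT (SD, n = 3 each; log2 change 0.73, adjusted p = 1.3e-05), a 1.73-fold rise. MAP1LC3B, the protein that is joined to lipid on autophagosomes, averaged 23.4 ± 0.69 CPM in MSLN-KO and 15.2 ± 1.49 CPM in WT (SD, n = 3 each; log2 change 0.60, adjusted p = 7.8e-05). Of the enzymes of this joining, ATG7 (log2 change -0.40, adjusted p = 5.4e-05) and ATG3 (log2 change -0.23, adjusted p = 0.005) were lower, and ATG5, ATG12, ATG16L1 and ATG10 were not called.

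Of 17 genes for the MiT/TFE relatives of TFEB, for mTORC1 and for the scaffold that holds it on the lysosome, 3 were higher, 3 lower and 11 not called (35.3% called, against 45.7% of all genes). The list also held 6 genes of 14-3-3 proteins, which keep phosphorylated TFEB in the cytoplasm. Of these 5 were lower, 0 higher and 1 not called (83.3% called). The whole list of 23 had 3 higher, 8 lower and 12 not called (47.8% called), and it was divided after the calls were made. MLST8, a subunit of mTORC1 (log2 change 0.44, adjusted p = 0.0035), and FLCN, the folliculin that acts on Rag GTPases (log2 change 0.27, adjusted p = 0.0086), rose, and the Rag GTPase RRAGB (log2 change -0.44, adjusted p = 0.00063) fell. Of the 14-3-3 genes YWHAZ was lowest (log2 change -0.47, adjusted p = 1.8e-05). Of the relatives of TFEB, MITF averaged 16.01 ± 0.79 CPM in MSLN-KO and 20.3 ± 2.55 CPM in WT (SD, n = 3 each; log2 change -0.32, adjusted p = 0.013), and TFEC was not called (log2 change 0.01, adjusted p = 0.92).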
